A study of Mus musculus with 2 samples.

Results

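The whey acidic protein (WAP) domain genes Slpi, Wfdc18, Wfdc1, Wfdc2, Wfdc3, Wfdc12 and Wfdc15b were examined in the mouse dorsolateral prostate. Their probes were found by matching the RefSeq accession printed for each non-control probe to these symbols, which gave 8 of 41174 probes: 2 for Wfdc18 and 1 for each other gene. The 7 genes are among 18952 named on the array. RNA of 6 wild-type FVB/N mice and RNA of 6 FVB/N mice of genotype ARR2PB-miR32 transgenic, all 6 months old, was pooled by genotype and hybridised together on 2 arrays with the dyes exchanged. In this line miR-32 is driven by ARR2PB, an androgen-responsive promoter built from probasin elements, whose activity is in the epithelium of the prostate. The comparison asks how expression of this microRNA in the gland alters its transcripts.

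Slpi and Wfdc18 were chosen by their lower transgenic over wild-type ratios on these same arrays, so their values are given as a description. The other genes were not picked for their ratios, though the list was made with earlier results of these data known. The genes named above are called the family here. They are not all WAP domain genes, and further ones are described below. Each genotype was 1 pool and the arrays are technical repeats of the same pools, 1 replicate in all. Genotype could not be tested, no p-value is given, and each ± is the SD over 2 arrays. Differences between animals were not measured. Mature miR-32 was not analysed here, so the genotype labels were not checked on the transgene. The microRNA is shown because it is the agent under study, with its seed (bases 2 to 8) in capitals. The sequence is from RefSeq, assembly GRCm38.p6, minus strand, chr4:56895272-56895293.

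mmu-miR-32-5p: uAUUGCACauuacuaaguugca

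WAP domains are small folds held together by disulfide bonds between conserved cysteines. Several proteins that carry one are secreted by epithelia and block serine proteases or act on microbes. SLPI, the secretory leukocyte protease inhibitor, blocks neutrophil elastase and cathepsin G at mucosal surfaces and dampens NF-kB signalling in macrophages. Wfdc18, also known as Expi or WDNM1, is a WAP domain gene of the mammary epithelium. Wfdc2 encodes HE4, an epididymal and airway secretory protein that serves as a serum marker of ovarian cancer. Wfdc1 encodes ps20, a growth inhibitor first purified from prostate stromal cells. Wfdc12 (SWAM2) and Wfdc15b (SWAM1) encode small antibacterial proteins. Mucosal antiproteases limit damage by proteases released during inflammation.

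The promoters of the 2 genes that were lower, Slpi and Wfdc18, are printed with that of Wfdc2, a family gene that did not pass the size rule described below. Each run is the 250 bases before the annotated start, 5′ to 3′ on the gene's own strand, from RefSeq assembly GRCm38.p6. Slpi lies on the minus strand (chr2:164356508-164356757), Wfdc18 on the plus strand (chr11:83708754-83709003) and Wfdc2 on the plus strand (chr2:164562465-164562714, the first of 2 annotated starts 1 base apart). Capitals mark matches to any of 6 short motifs searched on both strands.

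Slpi: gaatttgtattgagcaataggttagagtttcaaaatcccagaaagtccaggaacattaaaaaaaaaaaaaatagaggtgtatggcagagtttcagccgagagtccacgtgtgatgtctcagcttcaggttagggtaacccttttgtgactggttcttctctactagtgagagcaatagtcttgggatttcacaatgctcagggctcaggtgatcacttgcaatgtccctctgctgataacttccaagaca
Wfdc18: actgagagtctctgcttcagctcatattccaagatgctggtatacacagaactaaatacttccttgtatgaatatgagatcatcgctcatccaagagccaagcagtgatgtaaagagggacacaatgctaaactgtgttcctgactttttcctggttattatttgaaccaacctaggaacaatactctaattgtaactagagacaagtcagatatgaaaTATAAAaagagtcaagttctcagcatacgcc
Wfdc2: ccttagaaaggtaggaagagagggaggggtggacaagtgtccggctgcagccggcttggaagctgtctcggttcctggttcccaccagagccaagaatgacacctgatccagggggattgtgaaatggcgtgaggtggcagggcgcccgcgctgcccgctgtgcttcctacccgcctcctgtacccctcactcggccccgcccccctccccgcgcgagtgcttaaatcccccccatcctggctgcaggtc

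The motif of the TATA box, TATAAA, is found in 12.4% of 32851 promoters of this length. The CCAAT box is found in 33.8% and the androgen receptor core hexamer AGAACA in 16.1%. A STAT motif, TTCNNNGAA, is found in 7.02%, an NF-kB motif in 1.41% and an interferon-stimulated response element in 2.98%. The Wfdc18 window held a TATAAA from 31 to 26 bases before the start and no other match. The Slpi and Wfdc2 windows held none of these letters, nor did those of Wfdc3 and Wfdc12. The Wfdc15b window held CCAAT from 146 to 142 bases and AGAACA on the other strand from 133 to 128 bases before the start, with no overlap between them. The 2 lower genes shared no match. A match to letters is not a binding site, and its absence says nothing about the factor.

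Signals differed in strength between the dyes. Cy3 spots were well above background at 58.3% and 57.0% of all spots on arrays 1 and 2, and Cy5 spots at 42.1% and 21.1%. Cy3 labelled the transgenic pool on array 1, and Cy5, there the weakest channel, labelled it on array 2. Detection asked for a probe well above background on both arrays in the same pool, whichever of them, and 10434 genes met it. All of the family except Wfdc12 were detected, so 6 of 7. Of these 6, Wfdc2 was well above background in both pools on both arrays. The other 5 passed through the wild-type pool, with the transgenic pool well above background on array 1 and not on array 2. The count of detected members is therefore no support for a difference. The tissue label was checked on secretory luminal markers, of which 15 of 16 were detected, probasin (Pbsn) in both pools on both arrays.

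**Figure D1:**
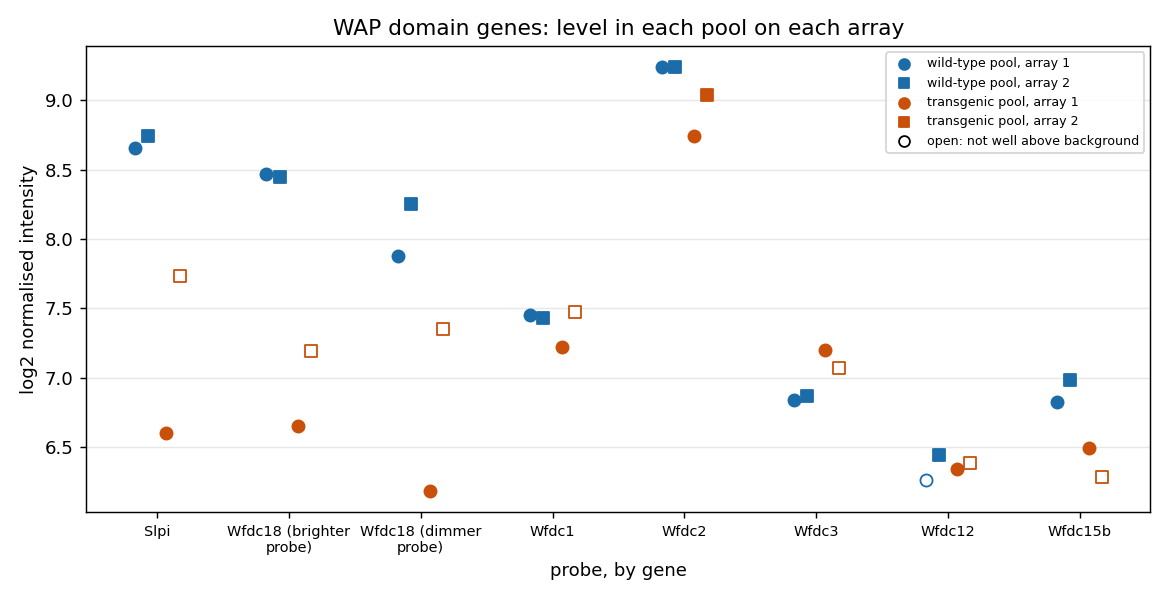
Log2 normalised intensity (y axis) of each WAP domain probe (x axis) in the wild-type and transgenic pools on arrays 1 and 2. Circles are array 1, squares array 2, and open symbols were not well above background. For Slpi and both Wfdc18 probes the transgenic points lie below the wild-type points on each array, and of the squares of the transgenic pool that of Wfdc2 alone is filled.

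Slpi was lower in the transgenic pool. Its background-corrected, normalised log2 intensity was 8.66 and 8.74 in the wild-type pool on arrays 1 and 2, and 6.60 and 7.73 in the transgenic pool. Both transgenic values lay below both wild-type values, and the transgenic values were further apart. The log2 ratio of transgenic over wild type was −2.06 on array 1 and −1.01 on array 2, a mean of −1.53 ± 0.74 or 2.89-fold lower. Its probe, A_52_P472324, was spotted once per array. In unnormalised signal less local background it gave 462 in wild type and 49 in transgenic on array 1, and 547 against 28 on array 2.

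Wfdc18 was lower on both of its probes. The brighter one, A_51_P246166, read 8.47 and 8.45 in the wild-type pool and 6.65 and 7.19 in the transgenic pool on the log2 scale. Its log2 ratios were −1.82 and −1.27, a mean of −1.54 ± 0.39 or 2.91-fold lower. The second probe, A_52_P329207, read 7.88 and 8.25 in wild type and 6.18 and 7.35 in transgenic, with log2 ratios of −1.70 and −0.90 and a mean of −1.30 ± 0.56. The transgenic values of each Wfdc18 probe lay below its wild-type values on both arrays. Wfdc18 thus has repeat measurements by separate probes, which the other family genes do not.

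A gene was called lower or higher when both arrays put its ratio past 1.5-fold with the same sign. By this rule 2 of the 6 detected family genes were lower (Slpi and Wfdc18), 0 were higher and 4 were neither. Over all detected genes 1.30% were lower (136) and 0.910% higher (95), but these 2 genes were chosen for their ratios, so the family count is not read against this background. Most genes' ratios did not repeat between the dye orientations: array 1 against array 2 gave a Pearson r of −0.027 over the detected genes, a description over genes that share the 2 pools. The split of all genes was 628 lower to 247 higher by the scanner software's log ratios. Median centring gave 554 to 2 and shifted the median over detected genes from −0.06 to −0.57. Both family calls held in each of those settings, in which 6.02% and 5.31% of all detected genes were lower, and at 2-fold, where 0.355% were. Neither gene had a value in the authors' deposited table (1.94% of its genes lower) or when both pools had to be detected (1.24%). The median ratio of the 6 detected family genes was −0.43, but it includes the 2 chosen genes and shows no family-wide shift. Without a choice of direction the remaining 4 ranged from −0.51 to 0.28.

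**Figure D2:**
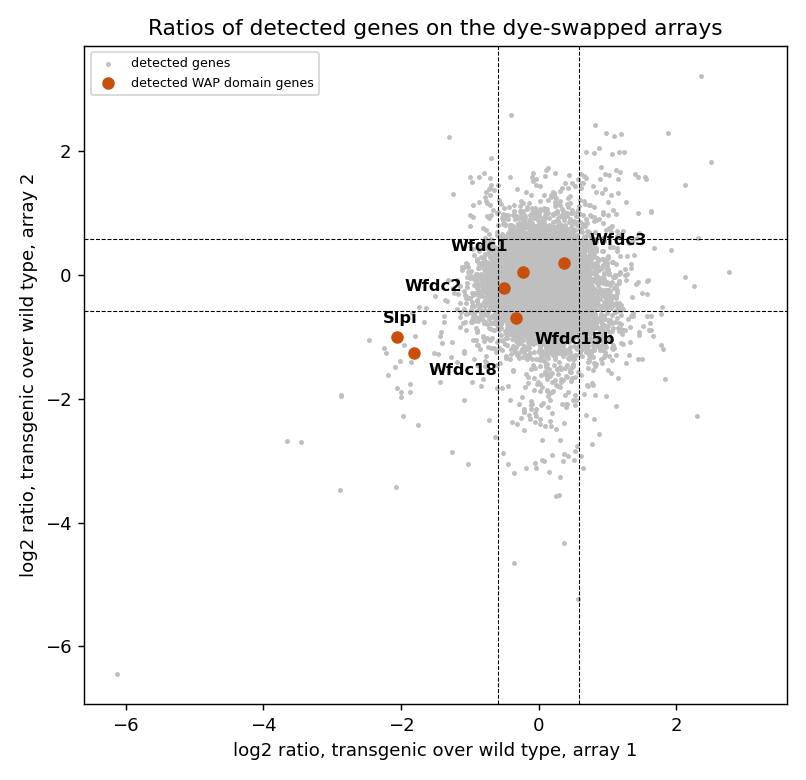
Log2 ratio of transgenic over wild type on array 1 (x axis) against array 2 (y axis) for 10434 detected genes in grey and the 6 detected WAP domain genes in orange, with dashed lines at 1.5-fold. Slpi and Wfdc18 lie in the lower left, past the lines on both axes, and the other 4 lie within the cloud of all genes.

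The size of the Slpi and Wfdc18 differences depended on how the signals were processed. The scanner software's own log ratios, with another background method and no added offset, gave −3.05 and −3.19 for Slpi, each with the software's error estimate of 0.35 and 0.44 in log2, or 8.68-fold lower on average. For Wfdc18 they were −2.68 and −3.24 (errors 0.33 and 0.41), or 7.78-fold lower. On the second Wfdc18 probe the software's ratios were −3.86 and −3.33, the latter with a substitute for a transgenic signal that it did not find above background. The 2 arrays differed less for Slpi by this route than after normexp and loess. The fold sizes of these genes are accordingly known only to within several-fold, while the direction was the same in each setting.

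A comparison within the stronger dye, added after the data were seen, set Cy3 of the transgenic pool on array 1 against Cy3 of the wild-type pool on array 2. Net Cy3 signal of Slpi was 49 in transgenic and 547 in wild type, a log2 ratio of −2.24 after centring. The Wfdc18 probes had 52 against 424.5 and 19 against 356, with log2 ratios of −1.88 and −2.22. Cy3 of both pools was well above background for these probes. This comparison is between arrays and has no repeat, and it put 9.59% of all detected genes past 1.5-fold lower.

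**Figure D3:**
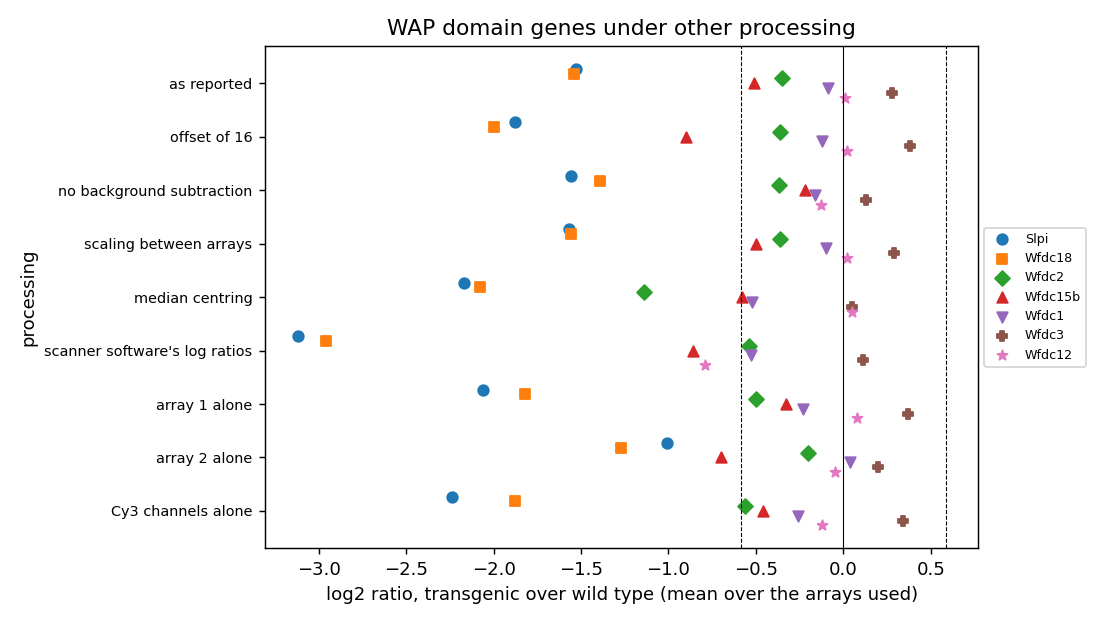
Log2 ratio of transgenic over wild type (x axis, mean over the arrays used) of the 7 WAP domain genes under 9 ways of processing (y axis), with dashed lines at 1.5-fold and a solid line at 0. Slpi lies between −3.12 and −1.01 and Wfdc18 between −2.96 and −1.27, left of the line in each row, and Wfdc3 stays right of 0.

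Wfdc2, the HE4 gene, did not pass the rule. It read 9.24 on both arrays in the wild-type pool and 8.74 and 9.04 in the transgenic pool. The log2 ratios were −0.50 and −0.20, a mean of −0.35 ± 0.21, so both arrays gave a lower transgenic value by less than 1.5-fold. Wfdc2 was the only family gene in the authors' deposited table of values, where it stood at −0.43 and −0.69. With median centring its mean was −1.14, from −0.53 and −1.75, against a median of all genes of −0.57.

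Wfdc1, the stromal ps20 gene, showed overlapping pools. Its log2 intensity was 7.45 and 7.43 in wild type and 7.22 and 7.47 in transgenic. The log2 ratios of −0.23 and 0.04 had opposite signs, with a mean of −0.09 ± 0.20. Among 17 detected stroma and smooth muscle markers 0 were lower, 0 were higher and 17 were neither, with a median of −0.12. Over all detected genes 2.21% were called in either direction, so this count does not show an unchanged stroma. The arrays also disagreed. The summed normalised intensity of these markers was 54109 in transgenic against 38287 in wild type on array 1, and 27612 against 45233 on array 2.

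Wfdc3 was the family gene with ratios above 0 on both arrays. It read 6.84 and 6.87 in wild type and 7.20 and 7.07 in transgenic, giving log2 ratios of 0.37 and 0.20, a mean of 0.28 ± 0.12. The transgenic values lay above the wild-type values without reaching 1.5-fold. On array 2 its sign turned by scanner ratios (−0.31, error 0.66) and with median centring (−0.25).

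The antibacterial family genes were near the limit of detection. Wfdc15b read 6.82 and 6.98 in wild type and 6.49 and 6.28 in transgenic, with log2 ratios of −0.33 and −0.70 and a mean of −0.51 ± 0.26. It passed 1.5-fold on array 2, as 15.0% of detected genes did on that array alone, and not on array 1. With the scanner software's log ratios it passed on both (−0.79 and −0.94, errors 0.32 and 0.53), where 6.02% of all detected genes were called lower. Wfdc12 read 6.26 and 6.44 in wild type and 6.34 and 6.38 in transgenic, with a mean ratio of 0.01 ± 0.09. It was well above background in the wild-type pool on array 2 and in the transgenic pool on array 1 only, and a difference was not detectable at this signal.

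Further WAP domain genes gave little signal in this gland. Of 16 such genes listed, 9 had a named probe and 1, Wfdc17, was detected. Wfdc17 is a macrophage WAP gene also known as AMWAP. It was at −0.10 on array 1 and −0.97 on array 2, a mean of −0.54 ± 0.61, and did not pass the rule. The undetected genes were Wfdc5, Wfdc6a, Wfdc15a, Wfdc21, Eppin, Wap, Wfikkn1 and Wfikkn2, and their mean ratios ran from −0.15 to 0.14. Eppin, an epididymal and testicular inhibitor on the sperm surface, and Wap, a milk protein gene, were each well above background once in each pool.

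Many WAP domain genes are neighbours, so the genes beside them were read as well, a choice made after the ratios were seen. In RefSeq assembly GRCm38.p6, 31 protein-coding genes run from Wfdc12 to Wfdc3 on chromosome 2 and include Wfdc12, Wfdc15b, Slpi, Wfdc2 and Wfdc3. Of the 26 other genes in this run 16 had a named probe and 3 were detected, with 0 lower and 0 higher. These were Sdc4, a syndecan, at −0.14, Dbndd2 at −0.21 and Sys1, a Golgi protein gene, at 0.62. The genes that directly precede Slpi in this run encode seminal vesicle secretory proteins (Svs2, Svs4, Svs3a, Svs6 and Svs5), and none of these was detected. Svs3b, also there, had no named probe. On chromosome 11 Wfdc18 lies between Wfdc17 and Wfdc21, beside a chemokine cluster. Among the genes nearest to it, the chemokine gene Ccl6 was lower (−0.91 and −0.68), and Ccl9, Wfdc17 and Heatr6, with means from −0.54 to 0.14, were neither.

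The detected genes whose ratios were closest to those of Slpi, by Euclidean distance over the 2 arrays, were the MHC class I gene H2-K2 (−1.96 and −1.13, distance 0.154), the heat shock gene Hspa1a (−2.24 and −1.18, distance 0.255) and the cytochrome oxidase subunit gene Cox8b (−1.80 and −0.98, distance 0.26). Those closest to Wfdc18 were Cidec (−1.86 and −1.41, distance 0.149), a lipid droplet gene of adipocytes, H2-K2 (distance 0.202) and Ssr2 (−2.01 and −1.39, distance 0.232), a subunit of the translocon-associated complex. Over 2 points such closeness carries no more than the size of the ratios.

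Other protease inhibitors were set beside the WAP family by class. Of 7 detected Kunitz and Kazal inhibitors 2 were lower, 1 was higher and 4 were neither, with a median of −0.03. The Kazal genes Spink1 and Spink5 were at −6.29 ± 0.23 and −3.17 ± 0.69. Spink8, another Kazal-type gene, was higher at 1.36 ± 0.28, from 1.16 and 1.56, a call that ended with median centring (0.50). Spint1, the Kunitz inhibitor HAI-1 of epithelial matriptase, was at 0.68 ± 0.32 without passing on array 1 and at −0.15 on its other probe.

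Serpins and cystatins were read next, as a description. Over all detected genes 2.21% were called in either direction, so few calls are no trait of these inhibitors. Of 7 secreted serpins 0 were lower and 0 higher, with a median of −0.20. Serping1, the C1 inhibitor, was at −0.44 and −1.80, and Serpinc1, antithrombin, at 2.13 and −0.03, so the arrays disagreed for both. The acute phase serpin Serpina3n was at −0.52 ± 0.09 and Serpina3m at −0.31 ± 0.21. Of 5 clade B serpins, which act inside cells for the most part, 0 passed in either direction, and their means ranged from −0.45 to 0.32. Of 13 cystatins, TIMPs and other inhibitors 1 was lower and 0 were higher, with a median of −0.17. This was Csta1, a cysteine protease inhibitor, at −0.86 ± 0.15, a call lost when background was not subtracted (−0.45 on array 2) and that its other probe, at −0.43, did not share. Stfa1, a stefin of the same type, was at −0.56 ± 0.26. Timp2 and Timp4, inhibitors of matrix metalloproteinases, were at −3.55 and −1.51 on array 2 but at 0.29 and 0.39 on array 1.

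**Figure D4:**
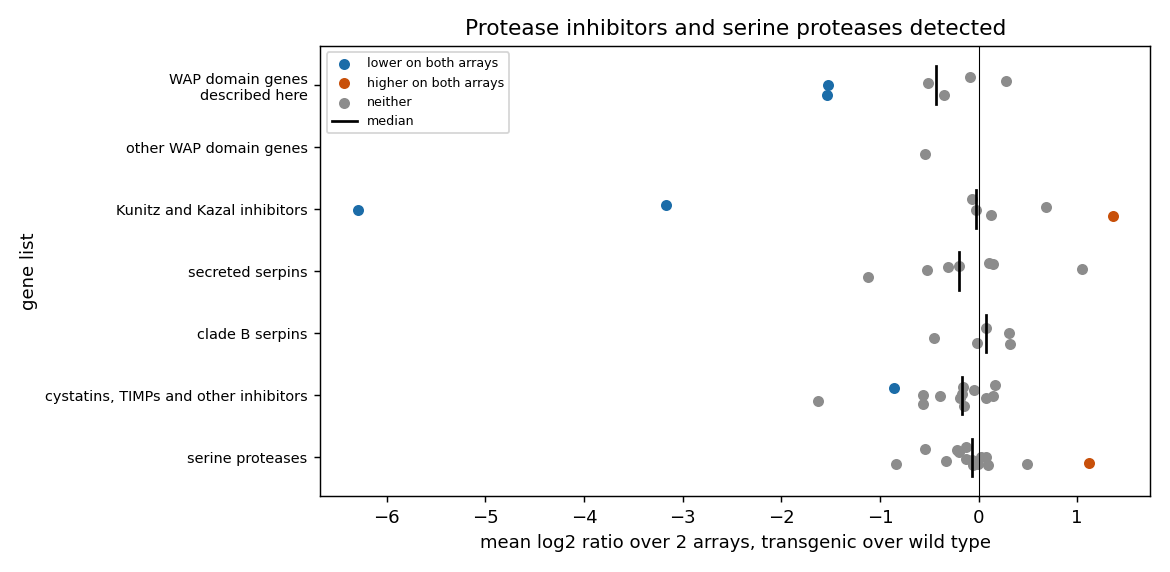
Mean log2 ratio over 2 arrays (x axis) of each detected gene in 7 lists of protease inhibitors and serine proteases (y axis), in blue where lower and orange where higher by 1.5-fold on both arrays, with a bar at each list's median. The serine protease list also holds Cpa3 and F3, which are not serine proteases. The WAP domain genes have 2 lower members near −1.5, the Kunitz and Kazal list reaches −6.29, and the serpin lists hold none past the rule. The median bar of the WAP domain genes includes Slpi and Wfdc18, which were chosen for lower ratios.

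The neutrophil serine proteases elastase (Elane), cathepsin G (Ctsg) and proteinase 3 (Prtn3) were on the array and were not detected. SLPI blocks elastase and cathepsin G among these. Mast cell proteases were detected, with Cma1 at −0.13 ± 0.03, Mcpt4 at −0.07 ± 0.67 and Tpsb2 at −0.13 ± 0.36. Of 15 detected genes in the serine protease list 0 were lower, 1 was higher and 14 were neither, with a median of −0.07. This list also holds Cpa3, a mast cell carboxypeptidase, and F3, tissue factor, which are not serine proteases and were among the neither. The higher one was Tmprss2, an androgen-responsive membrane protease, at 1.12 ± 0.71, a call that ended with the mean over its probes (0.42), with median centring (0.23), in the authors' deposited table and by the scanner software's ratios (each 0.57 on array 1) and in Cy3 alone (0.38). St14, the matriptase gene, was at −0.84 ± 0.62, the hepsin gene Hpn at −0.54 ± 0.15 and Htra1 at 0.49 ± 0.60, and none of these passed.

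Genes of proteins linked to SLPI included binding partners, a substrate it protects and NF-kB genes. Of 10 detected 1 was lower, 0 were higher and 9 were neither, with a median of −0.25. The lower one was Lcn2, an innate defence protein often induced together with Slpi, at −1.87 ± 0.01. Grn, the progranulin gene whose product SLPI shields from elastase, was at 0.97 ± 0.57 on its brighter probe and −1.05 on the other. On the brighter probe the unnormalised wild-type signal less background was 1275 on array 1 and 102921 on array 2. The same RNA pool thus gave very unlike signals there, and no direction is read for Grn. Cebpd was at −0.75 ± 0.43, and Nfkbia, the inhibitor of NF-kB, at −0.51 ± 0.71.

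Several cell types can express WAP domain genes, and their markers were read beside Slpi and Wfdc18. A lower level in bulk RNA cannot separate fewer cells of a type from less RNA per cell. Over all 10434 detected genes 1.30% were lower and 59.4% had means below 0, and 4378 passed detection through the wild-type pool alone against 10 through the transgenic pool alone. Because detection could rest on the wild-type pool alone, the counts, medians and sums of these lists are descriptions and support no difference. Such markers were 9 of 13 for macrophages, 4 of 13 for proximal ducts, 7 of 12 for adipocytes, 6 of 12 for basal cells and both of the neutrophil markers detected. Of 13 detected macrophage markers 3 were lower (Lyz1 at −1.57, C1qc at −0.75 and Mrc1 at −0.67) and 12 had means below 0. Their median was −0.55. Lyz1 is not particular to macrophages and is better known as the lysozyme gene of Paneth cells. Lyz2, the lysozyme gene of myeloid cells, was at −0.52 ± 0.06 and did not pass the rule. Adgre1, which encodes the macrophage antigen F4/80, was at −0.61 ± 0.17 and C1qa at −0.74 ± 0.78. The summed normalised intensity of these macrophage markers was 1848 and 2151 in the transgenic pool and 3141 and 3438 in the wild-type pool. On array 2 the calls of C1qc and Mrc1 were lost with scaling between arrays (−0.55 and −0.56), that of C1qc also by scanner ratios (−0.40) and in the authors' deposited table (−0.42), and that of Mrc1 also with no background subtraction (−0.30).

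Of 13 detected markers of proximal ducts and urethral epithelium 3 were lower and 12 had means below 0. Their median was −0.35. The lower ones were Pigr, the transporter of IgA, at −1.94, Ly6a, which encodes Sca-1, at −1.55, and lactoferrin (Ltf) at −0.78, a call lost when background was not subtracted (−0.39 on array 2). Cldn10, a claudin, was at −0.74. Psca, Aqp3 and Sox2 were not detected. Wfdc2 belongs to this list. The list's summed intensity was 6433 and 5845 in the transgenic pool against 9634 and 10324 in the wild-type pool.

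Of 16 neutrophil markers on the array 2 were detected, Ltf and S100a9 (−0.08 ± 0.31), with sums of 175 and 168 in transgenic and 224 and 238 in wild type. The defining markers S100a8, Camp, Ngp, Mpo, Elane, Cxcr2 and Csf3r were not detected. Of 12 detected adipocyte markers 6 were lower, with a median of −1.01 and sums of 5151 and 3952 in transgenic against 11186 and 11792 in wild type. Cfd was at −2.75, Fabp4 at −2.13, Car3 at −2.04 and Adipoq at −1.81. Of 9 seminal vesicle products on the array 1, Ceacam10, was detected and was lower at −1.36. None of the 12 detected basal markers passed in either direction (median −0.16, with Sfn at −0.47 and Krt15 at −0.42). Of 15 secretory luminal markers 2 were lower, 1 was higher and 12 were neither, with a median of −0.02. Their sums differed in direction between the arrays, at 340077 in transgenic against 391005 in wild type on array 1 and 522319 against 308758 on array 2. The lower ones were Msmb at −0.86 and Hoxb13 at −0.69. The higher one was Tmprss2 at 1.12, a call that ended in other settings as given above. Tgm4 was at 0.70 and did not pass. On array 2 the call of Msmb was lost by scanner ratios (−0.38), in the authors' deposited table (−0.41), with scaling (−0.56) and with no background subtraction, where its sign turned (0.38). The part of these cell types in the Slpi and Wfdc18 ratios was not tested.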

How the data were processed

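Total RNA was extracted with Trizol and 100 ng labelled for 2-colour Agilent arrays, per the labels. The deposited spot and background intensity values are medians per dye, unnormalised. Per the file headers, the scanner software was Feature Extraction 11.0.1.1. The scanner software's deposited log10 ratio is Cy5 over Cy3 after its own background and dye correction, per the file headers, and was multiplied to log2. The authors' deposited table (8533 probes, log2) matched that ratio as transgenic over wild type, with a correlation and a slope of 1 for both arrays, and had medians of −0.0001 and −0.0006. The sources used here do not state how its probes were chosen. Of the detected genes 6046 had a value in it, and 6046 were well above background in both pools on both arrays. The lack of a value there and the lack of detection in both pools are therefore not read as separate limits.

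Intensities were corrected with normexp (offset 50) and loess in limma 3.58.1 (R 4.3.3), with control and outlier spots at weight 0. Means per spot were planned, and medians were used because the files used here hold no means. Levels per pool were taken after Aquantile normalization. The ratio's direction rests on the labelled dyes. Probes were named through RefSeq (GRCm38.p6), which matched 27816 of 41174. The array annotation cites another build. A gene took its brightest detected probe. No p-value was computed because the arrays repeat 1 pair of pools. The size rule was tried on simulated ratios to which changes of known size had been added. How often it calls unchanged genes was not measured. The family, lists and rules were chosen with earlier results of these data known. Genes named are the family, detected WAP genes, up to 4 per list with the largest mean ratio, and the 3 genes nearest to Slpi and Wfdc18. Some of these are not reported here, and others (neighbours, proteases and defining markers) were added after their values were seen. Alternatives were another offset, no background subtraction, scaling, median centring, scanner ratios, the deposited table, other probe and detection rules, each array alone, 2-fold, and Cy3 alone. Figures were drawn with matplotlib 3.10.9.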

Additional observations from a re-analysis of the deposited data

How the results depend on the processing

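Slpi and Wfdc18 kept direction and call in all 10 alternatives that gave them a value. They had none in the deposited table or where both pools had to be well above background on both arrays, and the count of lower family genes was then 0, with Wfdc2 the sole member left. On single arrays (without array 1 or without array 2) Slpi ran from −2.06 to −1.01, Wfdc18 from −1.82 to −1.27 and Wfdc15b from −0.70 to −0.33, and the last passed 1.5-fold on array 2. Without background subtraction Wfdc3 was at 0.13, Wfdc15b at −0.22 and Wfdc12 at −0.13. With an offset of 16 Wfdc15b was at −0.90. By scanner ratios Wfdc1 was at −0.53, Wfdc3 at 0.11, Wfdc12 at −0.79 and Wfdc15b at −0.86, past the rule. With median centring Wfdc1 was at −0.52, Wfdc2 at −1.14 and Wfdc3 at 0.05. Wfdc2 was at −0.56 in the deposited table, and with Cy3 alone Wfdc2 was at −0.56 and Wfdc12 at −0.12. Over all detected genes the counts lower and higher were 136 and 95 as reported, 240 and 149 with an offset of 16, 628 and 247 with scanner ratios, 554 and 2 with median centring, 37 and 25 at 2-fold, and 1001 and 493 with Cy3 alone. The balance turned to more higher than lower genes on array 1 alone (558 lower, 845 higher), in the deposited table (lower 117, higher 173) and with both pools above background (76 lower, 94 higher). On array 2 alone 1570 were lower and 544 higher. The causes of these shifts were not tested. Cy5, which labelled the transgenic pool on array 2, was well above background there at 21.1% of spots. The part of this weak signal in each ratio was not tested. No paired analysis was possible because both arrays hold the same pair of pools.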
